A study of Danio rerio with 4 samples.

Results

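Fibroblast growth factor (Fgf) signalling was followed in whole zebrafish embryos at the 6-somite stage through the RNAs of its ligands, its receptors and the genes that the pathway induces to restrain or relay itself. Members were chosen by symbol. They were all rows of the deposited table named fgf with a number, those named fgfr with a number and at most the letter a or b (which leaves out 2 rows named fgfr1bl), all Sprouty (spry) and Spred genes, and etv4, etv5a, etv5b, dusp6 and il17rd. This gave 41 of 24235 genes, of which 24 were Fgf genes, 5 receptors and 12 feedback or target genes. There were 2 libraries of wild-type AB embryos and 2 of npas4l mutants (bns297/bns297), and all embryos were raised in E3 medium to the same stage with no treatment given in the labels. npas4l encodes a bHLH-PAS transcription factor without which most vessel and blood precursors are missing, and the comparison asks which RNAs depend on it. The labels do not give the number of embryos or clutches behind a library, so p-values measure only how far these libraries differ, and that spread can be technical in part. In whole embryos, fewer cells of a type and less RNA per cell cannot be told apart.

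Secreted Fgf ligands bind receptor tyrosine kinases together with heparan sulphate and signal mainly through Ras and the MAP kinase Erk. Erk activity switches on the ETS factors of the Pea3 group (etv4, etv5a and etv5b) and a set of inhibitors (the Sprouty and Spred proteins, the Erk phosphatase Dusp6 and the membrane protein Il17rd, also called Sef), so the RNAs of these genes are widely used as readouts of the pathway. In zebrafish embryos of this age, Fgf signals from the tailbud, the midbrain-hindbrain boundary and the hindbrain act on posterior mesoderm, brain patterning and the ear placode, and Fgf8 also acts on the heart field. No promoter, transcript or protein sequence was used here.

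Values below are normalised values, taken as the authors' scaled and rounded gene counts (an assumption for mutant replicate 2). They are listed for wild-type replicates 1 and 2 and then mutant replicates 1 and 2. They are compared between libraries and never between genes, because transcript lengths were not used. They summed to between 7272902 and 8237748 per library, and the 41 members took 0.158% to 0.169% of each. The labels were checked on 3 genes known to depend on npas4l. tal1 stood at 166, 163, 13 and 8, lmo2 at 210, 211, 61 and 33, and etv2 at 294, 244, 127 and 86. All 3 fell in the mutants in limma, at an adjusted p of 2.50e-05 or lower. As markers of whole embryos, tailbud (ta, tbx16, msgn1, cdx4), midbrain-hindbrain boundary (pax2a, en2a, en2b, wnt1, her5) and somite genes (myod1, myf5, tbx6) were present in every library, and 0 of these 12 genes passed the test. Mutant replicate 2 stood apart. In it 299 genes were at 0, while the other 3 libraries had 2444 to 3000 such genes, and its part in the results is given where it bears on them.

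No member changed by the test. Of the 41 members, 32 reached a mean of 10 over the 4 libraries and were tested. Log2 fold changes, mutant minus wild type, are on the log2(value + 1) scale with limma's standard error. 0 of 32 passed limma at a Benjamini-Hochberg adjusted p under 0.05, a threshold that 0.048% of all 16653 genes tested passed, and every member had an adjusted p of 1. At an unadjusted p under 0.05 there were 2 members lower in mutants, where 1.91% of all genes were, and 0 higher. limma-voom called 0 members (0.0661% of all genes), and 0 were called when any 1 library was left out. The median log2 fold change was -0.05 over the 32 members and -0.02 over all genes tested.

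**Figure D1:**
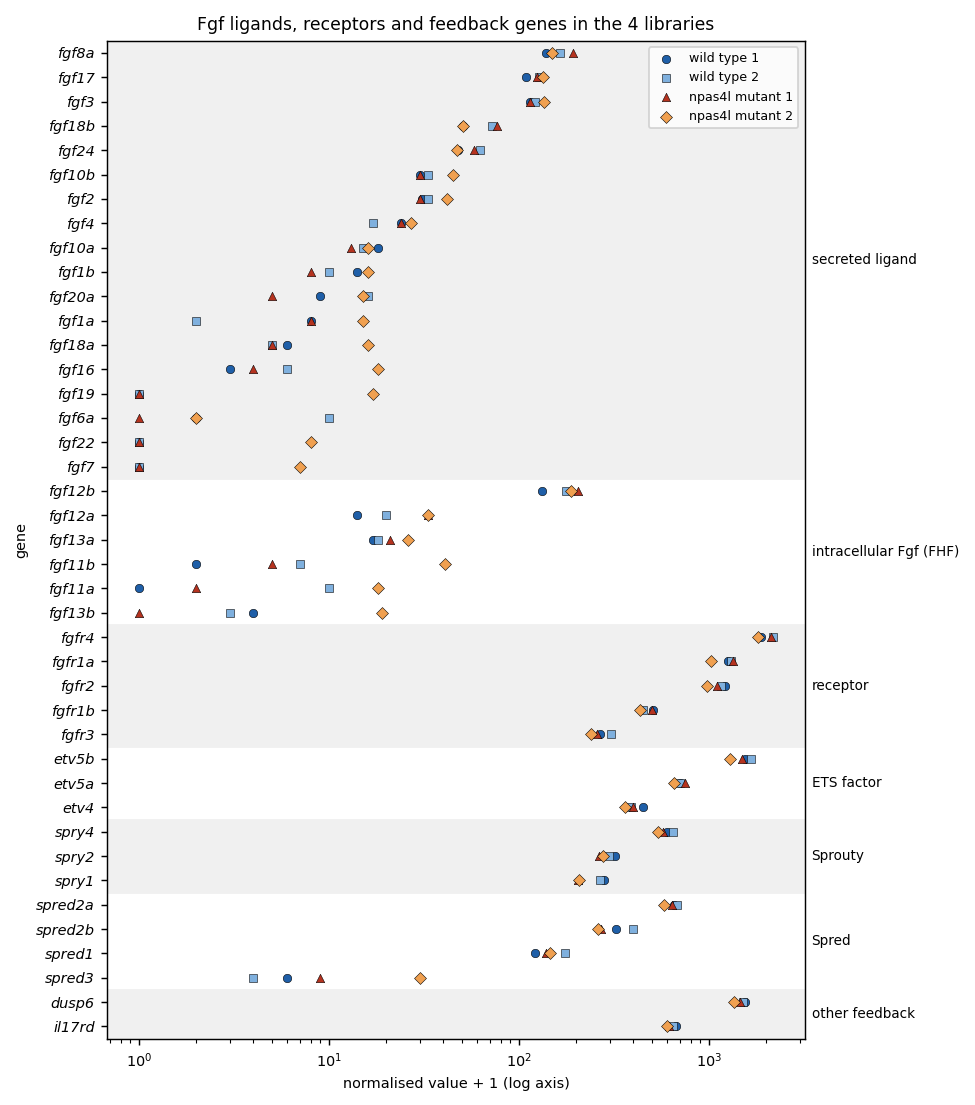
Normalised value + 1 (log axis) of all 41 members in the 4 libraries, grouped by role. Members with values above about 50 have the 4 libraries close together, while in most members under 10 the orange diamonds of mutant replicate 2 stand to the right of the other 3 libraries.

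Of the secreted ligands, fgf8a, fgf3, fgf17, fgf18b and fgf24 had mean values above 50, and none differed between the groups beyond the spread. fgf8a (ENSDARG00000003399, chromosome 13, 28364969 to 28371535, plus strand, GRCz10) encodes the ligand of the midbrain-hindbrain boundary and tailbud that is mutated in the acerebellar line. Its values were 138, 163, 192 and 148, a log2 fold change of 0.17 ± 0.21 (SE). Mutant replicate 1 was the highest library and mutant replicate 2 lay within the wild-type range, so the groups overlapped. The 95% interval placed the mutant level between 83.9% and 150% of the wild-type level.

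fgf3, which acts with fgf8a in the hindbrain and in inducing the ear, had 113, 121, 113 and 134, and a log2 fold change of 0.07 ± 0.23. fgf17, a close relative of fgf8a, had 108, 127, 123 and 133, and a change of 0.13 ± 0.23. In both genes mutant replicate 1 lay within the wild-type range or at its edge and mutant replicate 2 was the highest library. Of all genes whose mean reached 50 in the other libraries, 12.5% were highest in mutant replicate 2. fgf24, a ligand of posterior mesoderm and the pectoral fin field, had 47, 61, 57 and 46, a change of -0.06 ± 0.35. fgf18b, another gene of the Fgf8 subfamily, had 50, 71, 76 and 50, a change of 0.05 ± 0.33. For these 2 genes the wild-type and the mutant replicates spanned about the same range.

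The other tested secreted ligands had mean values between 10 and 50, and their intervals were wide. fgf4 stood at 23, 16, 23 and 26, with a log2 fold change of 0.33 ± 0.61. fgf2, a ligand without a classical signal peptide, stood at 30, 32, 29 and 41, a change of 0.15 ± 0.47. fgf10b stood at 29, 32, 29 and 44, a change of 0.22 ± 0.46. In all 3 genes mutant replicate 2 was the highest library, and mutant replicate 1 lay inside the wild-type range or within 1 of its end. Of all 5369 genes with a mean between 10 and 50 in the libraries other than mutant replicate 2, 41.6% were highest in that replicate. The remaining 3, fgf10a, fgf1b and fgf20a, had changes of -0.19 ± 0.82, -0.06 ± 1.04 and -0.47 ± 1.16. The groups overlapped in all 11 tested secreted ligands. The median change was 0.07 over these 11 and 0.70 over the 4 intracellular Fgf genes tested, which are described below. The 0.70 includes fgf11b, at 1.94, which passed the filter on low values only through mutant replicate 2. The others, fgf12b, fgf13a and fgf12a, had changes of 0.36, 0.42 and 0.98. Over all 15 Fgf genes tested, the intracellular ones included, the median was 0.15. Of these, fgf1b, fgf20a and fgf11b had a mean under 10 in the 3 libraries other than mutant replicate 2. Over the other 12 the median was 0.16, and it was 0.17 without mutant replicate 2 and 0.25 without mutant replicate 1.

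The genes of the Fgf11 to Fgf14 group encode Fgf homologous factors, which stay inside the cell, bind voltage-gated sodium channels and are not thought to act as ligands. 4 of 6 were tested, and in 3 of these each mutant library exceeded each wild-type library, as in 13.3% of all genes tested. Of all genes whose mean reached 100, as that of fgf12b did, 7.55% were higher in both mutants. The other 2, fgf12a and fgf13a, were of low value. Over all genes at their level, mutant replicate 2 stood above the other libraries by a median of 0.32 (log2). None passed the test. fgf12b had 131, 175, 203 and 187, a log2 fold change of 0.36 ± 0.21 with an unadjusted limma p of 0.0824. fgf12a had 13, 19, 32 and 32, a change of 0.98 ± 0.60 with an unadjusted limma p of 0.106, and fgf13a had 16, 17, 20 and 25, a change of 0.42 ± 0.67. The 2 fgf12a mutant values were equal, so its difference did not rest on mutant replicate 2. A gene on the same strand that overlaps one end of fgf12a over 28579 bases, crfb16, a cytokine receptor family member, had 7, 4, 21 and 26, which moved with it, and how far reads of one were counted for the other was not tested. The fourth tested gene, fgf11b, had 1, 6, 4 and 40. It passed the filter on low values only through mutant replicate 2, and it overlaps cldn7b on the same strand (393, 382, 278 and 307).

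The 5 receptor genes had values between 238 and 2170, and none passed the test. fgfr1a, the receptor linked to posterior mesoderm and brain patterning, had 1254, 1304, 1344 and 1025, a log2 fold change of -0.12 ± 0.14. Its mutant replicates lay on either side of the wild-type pair. fgfr4 had 1878, 2170, 2127 and 1817, a change of -0.04 ± 0.14, and fgfr1b had 505, 448, 498 and 434, a change of -0.03 ± 0.16. In both genes mutant replicate 1 lay within the wild-type range and mutant replicate 2 just below it. The sign of the fgfr4 and fgfr1b changes turned with upper-quartile scaling, with scaling to totals without mitochondrial and ribosomal RNA, with quantile normalization and with limma-voom.

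fgfr2 and fgfr3 were the 2 receptors whose groups did not overlap, both lower in mutants, as 22.4% of all genes whose mean reached 100 and 16.1% of all genes tested were. fgfr2 had 1214, 1160, 1101 and 976, a log2 fold change of -0.19 ± 0.14. fgfr3 had 266, 304, 255 and 238, a change of -0.21 ± 0.18. In fgfr2 the gap between mutant replicate 1 and the nearer wild-type library was about as wide as the gap between the wild-type libraries. In all 5 receptors mutant replicate 2 was the lowest library, and 61.1% of all genes whose mean value reached 100 were lower there than in either wild-type library. That share was not matched further to the level of the receptors. The median change of the receptors was -0.12, and it was 0.07 without mutant replicate 2 and -0.26 without mutant replicate 1. Over all genes whose mean reached 100 these medians were -0.06, 0.02 and -0.14. The 95% intervals of the 5 receptors lay between 67.8% and 121% of the wild-type level.

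**Figure D2:**
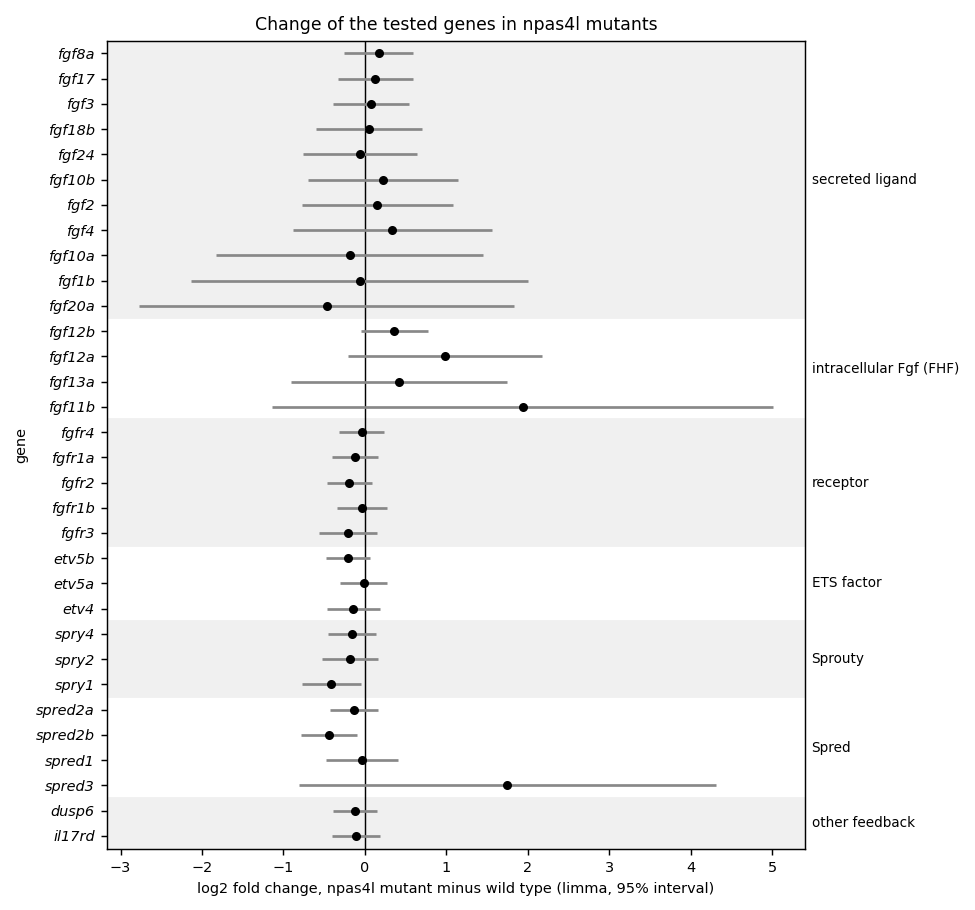
Log2 fold change (mutant minus wild type, log2(value + 1) scale) of the 32 tested members with the 95% interval from limma, grouped by role. Intervals are narrow for receptors and feedback genes and wide for ligands with low values. spry1 and spred2b are the genes whose unadjusted intervals lie wholly below 0.

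Most feedback genes had slightly lower values in the mutants, and none passed the test. Of the 12, 11 reached a mean value of 100, and in all 11 the log2 fold change was below 0, between -0.44 and -0.02. A change below 0 was also found in 66.5% of all genes whose mean reached 100. In 8 of the 11 both mutant libraries were lower than both wild-type libraries, and 0 were higher in both. Over all 7872 genes at that level, a limit chosen after seeing the data, 22.4% were lower in both mutants, 7.55% were higher in both and the median change was -0.06, while that of the 11 genes was -0.14. The count depended on the scaling. With upper-quartile scaling 8 were lower and 0 higher, where 17.3% of genes at that level were lower and 14.1% higher. With totals without mitochondrial and ribosomal RNA 6 were lower and 1 higher (18.2% and 15.1% of genes), and with quantile normalization 4 were lower and 1 higher (16.6% and 16.5%). None of the shares in this paragraph was matched further to the level of the 11 genes. Mutant replicate 2 differed from the other libraries by a median of -0.11 (log2) over all genes near the level of spred1. Near the level of etv5b that median was -0.20.

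The same count was made within each mutant library. Mutant replicate 1 alone was lower than both wild-type libraries in 8 of the 11 genes, against 29.5% of genes at that level, and mutant replicate 2 alone in 10, against 61.1%. The 8 genes lower in both mutants are by definition part of each count. Both counts also use the same wild-type libraries, so they are not separate from the first count. The shares were again not matched further to the level of the 11 genes. The median of the 12 feedback genes was -0.14. Without mutant replicate 2 it was -0.08, while the median of all genes tested was 0.01. Without mutant replicate 1 it was -0.19, while that of all genes tested was -0.04. From the wild-type mean, the 11 genes had a median of -0.09 in mutant replicate 1 and -0.21 in mutant replicate 2. Over all genes at that level these medians were 0.02 and -0.14. Among the alternatives run, the median of the 12 feedback genes was below 0 in each. The sign of 2 of the 11 genes, etv5a and spred1, turned with upper-quartile scaling, with totals without mitochondrial and ribosomal RNA, with quantile normalization and with limma-voom.

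**Figure D3:**
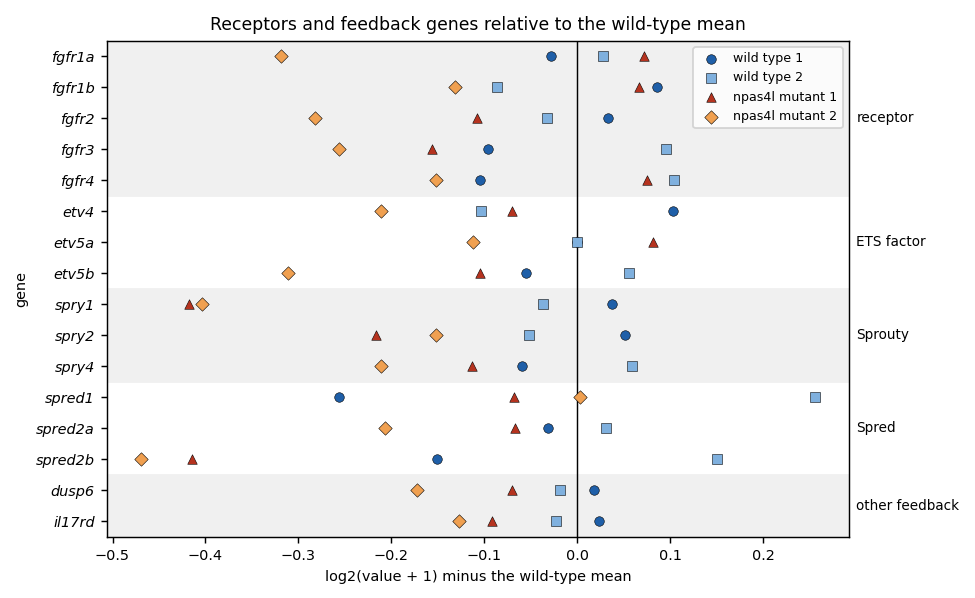
log2(value + 1) of each library minus the wild-type mean for the 5 receptors and the 11 feedback genes whose mean value reached 100. For spry1, spry2, spry4, spred2a, spred2b, etv5b, dusp6 and il17rd both mutant libraries lie left of both wild-type libraries, and for spry1 and spred2b the mutant libraries lie farthest from the wild-type mean.

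Sprouty proteins block signalling between the receptor and Erk. spry1 (ENSDARG00000103985, chromosome 14, 508473 to 509757, plus strand) had 280, 266, 204 and 206. Both pairs of replicates were close and the groups were well separated. Its log2 fold change was -0.41 ± 0.18, with an unadjusted limma p of 0.0273 and an adjusted p of 1, and the 95% interval ran from 58.4% to 96.8% of the wild-type level. Over the alternatives its change ran from -0.45 to -0.35, so it did not rest on 1 library.

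spry2 had 318, 296, 264 and 276, a log2 fold change of -0.18 ± 0.17. spry4, a widely used readout of Fgf activity in zebrafish, had 597, 648, 575 and 537, a change of -0.16 ± 0.15. In both genes the groups did not overlap, but the change was near the size of its standard error. The 95% interval of spry4 ran from 72.8% to 110% of the wild-type level.

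Spred proteins inhibit the activation of Raf by Ras. spred2b (ENSDARG00000008372, chromosome 13, 5450552 to 5808557, minus strand) had 322, 397, 268 and 258, a log2 fold change of -0.44 ± 0.17 with an unadjusted limma p of 0.0118 and an adjusted p of 1. Both mutant libraries were lower than both wild-type libraries, and the wild-type libraries differed from each other by more than wild-type replicate 1 differed from the mutants. Over the alternatives its change ran from -0.59 to -0.29. A long intergenic RNA on the same strand that overlaps its end, CR926469.1, stood at 1, 0, 0 and 14.

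spred2a, its paralogue, had 652, 681, 636 and 577, a log2 fold change of -0.14 ± 0.15. meis1a overlaps one end of spred2a by 443 bases on the opposite strand (353, 321, 294 and 312), and no source used here says whether the counting was stranded, so reads from that stretch may not be told apart. spred1 had 121, 173, 138 and 145, a change of -0.03 ± 0.22, with both mutants between the wild-type libraries. spred3 had 5, 3, 8 and 29, and it passed the filter on low values only through mutant replicate 2.

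The Pea3-group ETS factors relay the signal to the nucleus. etv5b (ENSDARG00000044511, chromosome 6, 13902582 to 13910699, minus strand) had 1541, 1664, 1489 and 1290, a log2 fold change of -0.21 ± 0.14, and its groups did not overlap. Without mutant replicate 1, with mutant replicate 2 as the only mutant, its limma adjusted p was 0.0686, the lowest of any member under any alternative run (up to 1 in the others), at a change of -0.31. etv4 had 448, 388, 397 and 360, a change of -0.14 ± 0.16, and etv5a had 706, 706, 747 and 653, a change of -0.02 ± 0.15. The etv5a mutants lay on either side of the 2 equal wild-type values, and the etv4 groups overlapped.

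dusp6 (ENSDARG00000070914, chromosome 25, 18229898 to 18234103, minus strand), the Erk phosphatase, had 1539, 1501, 1448 and 1349, a log2 fold change of -0.12 ± 0.14. il17rd, which encodes Sef, had 666, 645, 615 and 600, a change of -0.11 ± 0.15. In both genes the 2 mutants were below the 2 wild types by a small margin. The 95% intervals placed dusp6 between 76.2% and 111% and il17rd between 75.7% and 114% of the wild-type level.

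Other genes of the pathway were counted from 3 lists of signal transducers, surface modulators and nuclear or induced genes. Of 88 in the table, 79 were tested and 0 passed limma, over all genes tested; at an unadjusted p under 0.05, 0 were higher and 3 (3.80%) lower, where 1.84% and 1.91% of all genes were, and limma-voom called 0. Their median log2 fold change was -0.0014, against -0.02 over all genes. In both mutants 21.5% of them were lower and 16.5% higher, where 16.1% and 13.3% of all genes tested were. Of all genes whose mean reached 100, 22.4% were lower and 7.55% higher. None of these shares, nor those by unadjusted p, was matched to the level of the listed genes. The 6 with the smallest p were dusp4, sulf1, dusp5, tbx6, elk3 and sulf2a, all with a change below 0. dusp4, an Erk phosphatase like dusp6, had 224, 244, 177 and 176, a change of -0.40 ± 0.19 with an unadjusted limma p of 0.0386, and its mutant values were nearly equal and below both wild types. dusp5, an Erk phosphatase also expressed in vessels, had 46, 47, 20 and 29, a change of -0.92 ± 0.46 with an unadjusted limma p of 0.0484. The other dusp genes of the list did not fall. dusp2 had 28, 23, 41 and 34, a change of 0.54 ± 0.48, and dusp1 and dusp7 had changes of 0.05 ± 0.17 and 0.04 ± 0.23.

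sulf1, an enzyme that removes sulphate groups from heparan sulphate, had 1382, 1212, 1091 and 1029, a change of -0.29 ± 0.14. tbx6, a T-box factor of presomitic mesoderm, had 1435, 1527, 1323 and 1137, a change of -0.27 ± 0.14. It passed limma without mutant replicate 1, at -0.38 and an adjusted p of 0.0175. That fit leaves mutant replicate 2 as the only mutant, assumed to vary like the wild types, and it called 250 genes (1.5%) lower. elk3, an ETS factor expressed in vessels, had 97, 84, 67 and 59, a change of -0.51 ± 0.29, and sulf2a had 128, 163, 132 and 91, a change of -0.39 ± 0.23. Of the 34 tested transducers, which run from the adaptors to Erk, 0 had an unadjusted p under 0.05 and the median change was -0.02.

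Markers of the tissues where these genes act were set beside them. The 4 tailbud genes and the somite gene tbx6 are also in the list of nuclear or induced genes, so the 2 comparisons share these rows. The tailbud factor ta had 517, 567, 483 and 439, a log2 fold change of -0.23 ± 0.15, and tbx16, msgn1 and cdx4 had changes of -0.15 ± 0.15, 0.12 ± 0.15 and 0.11 ± 0.14. The median was -0.02 over the 4 tailbud genes and 0.03 over the 5 midbrain-hindbrain boundary genes. It was -0.12 over 6 hindbrain and ear placode genes, -0.11 over 3 somite genes and -0.51 over 3 hatching gland rows. All but the midbrain-hindbrain boundary median lay on the same side of 0 as the feedback median. The tailbud median, however, was near that of all genes tested (-0.02). Of the tailbud genes, ta and tbx16 were below 0 and msgn1 and cdx4 above it. Of single genes whose mean reached 100, 66.5% had a change below 0, a share that is no base for medians of a few genes. The hindbrain and ear placode changes ran from -0.26 (foxi1) to 0.25 (pax8), and the 2 ctslb rows of the hatching gland had -0.78 and 0.01. The median was -0.28 over the 3 tested heart-field genes gata4, gata5 and hand2, of which 2 were lower in both mutants, as 22.4% of all genes whose mean reached 100 were. Among 5 endothelial and blood precursor genes it was -1.36, the change of gata1a (14, 20, 3 and 11), a gene of low value. This list includes tal1, lmo2 and etv2, the genes of the label check. Its other gene, fli1a, had 112, 95, 85 and 101, a change of -0.15 ± 0.26, and its groups overlapped. The part of any of these cell groups in the values of the feedback genes was not tested.

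The low-value members followed mutant replicate 2. In 13 members the mean of the other 3 libraries was under 10, and in 11 of these mutant replicate 2 was the highest library. Of all 8361 genes at that level, 71.4% were highest there. For wild-type replicates 1 and 2 and mutant replicate 1, treated the same way, the shares were 11.2%, 11.3% and 10.3%. The values of these 13 genes therefore give no comparison of the groups.

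fgf19, an endocrine-type ligand, was listed at 0, 0, 0 and 16. fgf22 was listed at 0, 0, 0 and 7, and fgf7 at 0, 0, 0 and 6. The other genes highest in mutant replicate 2 were fgf1a, fgf1b, fgf16, fgf18a, fgf11a, fgf11b, fgf13b and spred3, at 14 to 40 there. The 2 exceptions were fgf20a (8, 15, 4 and 14) and fgf6a, a ligand known from muscle, which stood at 1, 9, 0 and 1. Of these 13 genes, 9 had a mean under 10 over all 4 libraries and were not tested.

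**Figure D4:**
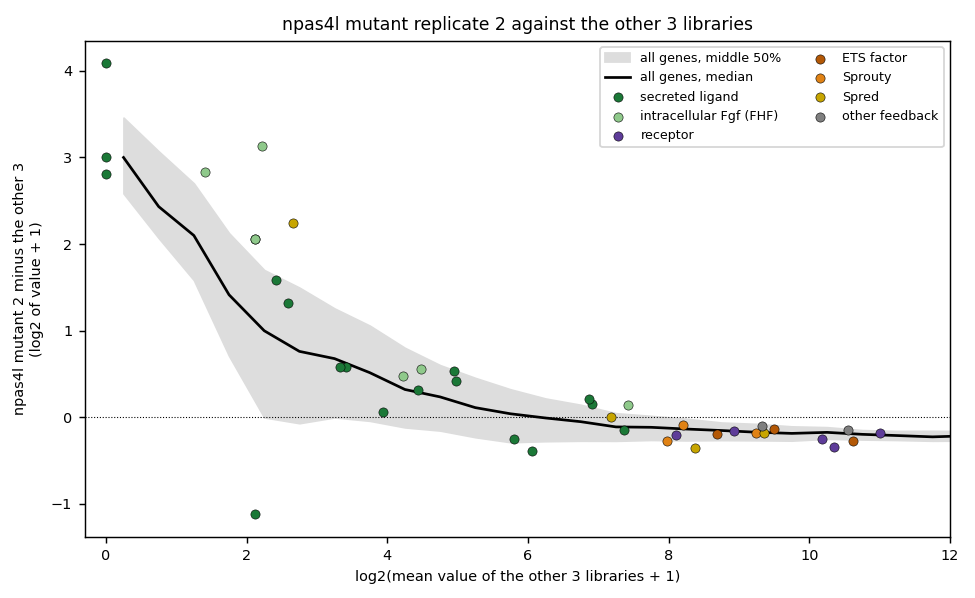
Difference of mutant replicate 2 from the other 3 libraries (log2 of value + 1) against the mean value of those 3 (log2 of mean + 1), with the median and middle 50% of all genes. Members under 10 mostly lie above 0, as most genes of that level do. The 5 receptors and the 11 feedback genes whose mean reached 100 lie mostly a little below 0. Of these, fgfr1a, spred2b, spry1 and etv5b lie below the middle 50% of all genes, and the others lie within it or at its edge.

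Several members lie close together in the genome (GRCz10 positions of the deposited table). fgf3 (chromosome 7, 54335988 to 54339456), fgf4 (54347408 to 54355224) and fgf19 (54372353 to 54375912) are all on the plus strand, 8.0 kb and 17.1 kb apart. The groups overlapped in fgf3 and in fgf4, and fgf19 was above 0 in mutant replicate 2 alone. An antisense RNA that overlaps fgf4 and fgf19, AL929586.1, stood at 3, 2, 8 and 8. spry1 and fgf2 lie 34.5 kb apart on chromosome 14, and fgf1b and spry4 lie 484.0 kb apart on chromosome 21, each pair an Fgf ligand of the Fgf1 subfamily beside a Sprouty gene. spry1 was lower in both mutants, while the groups of fgf2 overlapped. In all, 10 of the 41 members overlap another gene of the table. The antisense RNAs over fgf8a, fgf10a, fgf6a and etv4 stood at 9 or lower in every library.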

How the data were processed

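Total RNA of whole embryos was sequenced in 4 libraries made with a stranded total RNA kit, per the labels' protocols. The submitters' processing notes name FastQC, STAR 2.4.0a, featureCounts 1.4.5-p1 and DESeq2, with builds danRer10 and GRCz10, and no settings. The deposited values are a score, taken here as each library's gene counts divided by a factor and rounded. This was read from the values of wild-type replicates 1 and 2 and mutant replicate 1. For mutant replicate 2 the same scaling was assumed. In wild-type replicate 1 no gene had the value 6, 18 or 31, and in wild-type replicate 2 more genes had 4 (1242) than 3 (652) or 5 (540). Counts could not be recovered, so no count model or counting interval was used.

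For the 16653 genes whose mean value reached 10, log2(value + 1) was compared with the trended variance model of limma 3.58.1 (R 4.3.3, limma-trend), group being its sole term, and Benjamini-Hochberg adjustment over all genes. The prior had 83.6 degrees of freedom, so standard errors reflect mostly the trend over genes of similar value. Tables and figures used Python 3.11.15, pandas 2.3.3 and matplotlib 3.10.9. Where 1 library was left out, genes tied in the remaining pair took the trend variance. The code was tested on simulated counts, which had no scaling and no difference of mutant replicate 2 that changed with level. That test bears on the code and not on these values.

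The members, lists and tests were chosen with earlier results of these data known. Members whose mean reached 50 are given in every library, the others by change, range or count. The companion genes named are those with the 6 smallest p-values, with dusp1, dusp2 and dusp7 added beside dusp4 and dusp5. Genes overlapping members, and lists' examples, were added after their values were seen. List genes were found by their symbol or by the current symbol of their gene ID. Other Fgf genes, such as fgf9, fgf21 and fgf23, had no row under these symbols in the deposited table and so were not analysed here.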

Additional observations from a re-analysis of the deposited data

How the results depend on the processing

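Members called stayed at 0 in each direction in all alternatives. Over all genes, 1 was called higher and 7 lower. 2 were higher at a minimum mean value of 50, with quantile normalization and with totals without mitochondrial and ribosomal RNA, which called 13 lower. Leaving out each library gave 2 to 27 higher and 4 to 250 lower, most without mutant replicate 1 (27 and 250), and 0 to 1 companion genes lower. The median of the Fgf genes, the intracellular ones included, was 0.33 with no filter. It was 0.16 without genes of low value in the 3 libraries other than mutant replicate 2, chosen after seeing the data. Leaving out each library it ran from 0.088 to 0.32, the receptor median from -0.26 to 0.066 and the feedback median from -0.19 to -0.081. The feedback median was -0.14 in the main fit, where that of all genes tested was -0.018. It was -0.085 with totals without mitochondrial and ribosomal RNA and with limma-voom. There the medians of all genes tested were 0.036 and 0.031. With quantile normalization the feedback median was -0.066 and that of all genes tested was -0.005. The cause was not tested. Of 406 member values under alternatives, 36 had the opposite sign to the main value, in 13 members, none called. The replicate block called 1 gene higher and 8 lower, and no member. Over genes, replicate differences of the 2 groups correlated at 0.009. Mutant replicate 2 differed from the other libraries by an amount that changed with level, so this value cannot show whether replicates were paired. With 2 libraries per group, standard errors were 0.14 or more in every member, and the read number behind each value is known only up to the scaling.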
